A study of Mus musculus with 16 samples.

Results

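The comparison described here is that of GFP+ olfactory neurons from mice exposed to the odorant 1-pentanethiol with GFP+ neurons from mice exposed to filtered air, the vehicle. It takes 8 of the 16 arrays of the study: the 4 GFP+ arrays whose title begins with Odor against the 4 GFP+ arrays whose title begins with Vehicle. All 22206 probe sets that measure genes were tested, 1080 of them for odorant receptors, and control entries were not.

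All mice carried S100a5-tauGFP, a reporter that couples a tau-GFP fusion protein to the S100a5 gene. The study used 24 animals of both sexes, 7 to 12 weeks old, in 8 pools of 3. Each animal sat alone for 40 h in a chamber flushed with clean air at 3.1 L/min. Pulses of odor or of filtered air, 10 s long and 20 min apart, started at 26 h. The olfactory mucosa was then dissociated and sorted, and each pool gave 1 GFP+ and 1 GFP- sample for Clariom S mouse arrays. The series' design text names bourgeonal as the odor, and the name in the sample labels is used here. A replicate is thus a pool of animals, and the spread between arrays is that between pools.

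An olfactory sensory neuron transcribes mainly a single odorant receptor gene, and odor binding to that receptor opens cyclic nucleotide-gated channels. Repeated activity raises a set of transcripts in the neuron over hours, and S100a5, which encodes a calcium-binding protein, is a known member of that set. A cell therefore enters the GFP+ fraction when it has been active, and receptors that an odor activates are looked for among the receptor transcripts that become more abundant there. More cells bearing a receptor and more receptor RNA per cell cannot be told apart in sorted bulk RNA.

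Values are log2 signals, differences are odor minus vehicle on that scale with the standard error of the limma model, and n = 4 arrays per group throughout. Adjusted p-values are from limma with Benjamini-Hochberg adjustment over all probe sets tested, and the threshold was 0.05. The overall median signal of the GFP+ arrays ran from 7.38 to 7.45. Arrays of the odor group correlated with each other at r from 0.989 to 0.992, those of the vehicle group at 0.984 to 0.993, and arrays of different groups at 0.985 to 0.994. The GFP+ array of vehicle replicate 2 stood apart in its negative control entries, whose median was 7.28 there and from 6.22 to 6.48 on the 7 others, and values without it stand beside the results below that it changes. The Y-linked genes Kdm5d, Eif2s3y and Uty ranged widely within both groups, Eif2s3y from 4.66 to 11.66 with odor and from 4.51 to 12.99 with vehicle. Their differences of 0.24 ± 1.20, -0.13 ± 2.00 and -0.06 ± 1.79 were far from the threshold. With errors of that size the test could not show whether the groups differed in sex. The median difference of these genes was -0.06, and 1.03 without vehicle replicate 2. The sorted cells carried the markers of mature olfactory neurons at high levels: the array median over the 25 markers ran from 16.51 to 16.80 with odor and from 16.42 to 16.72 with vehicle. One of them, Omp, was as high in GFP- cells, at 18.32 with odor and 18.27 with vehicle. In GFP+ cells 14 of 16 sustentacular and 14 of 15 macrophage and leukocyte markers also averaged above the negative control median. Of the horizontal basal and endothelial markers, 1 of 10 and 1 of 9 did.

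With odor, 17 probe sets rose in GFP+ cells (0.0766% of those tested) and 0 fell. The 17 were 9 odorant receptors, 7 other named genes and 1 probe set without a gene symbol, and for every one of them the 4 odor arrays lay above the 4 vehicle arrays. Such separation occurred for 389 of all probe sets (1.75%) in that direction and for 245 (1.1%) in the other. At an unadjusted p under 0.05, 950 probe sets were higher (4.28%) and 637 lower (2.87%). The count of 17 came from a fit in which the GFP- arrays entered the estimate of spread, and it was 6 with the GFP+ arrays fitted alone. It fell to 8 without odor replicate 1 or without odor replicate 2, and to 10 without vehicle replicate 2 or without vehicle replicate 4. Over all 17 alternative settings, 6 probe sets passed wherever they were tested: Pcdh10, Camk2n1, Sema7a, Olfr1395, Olfr195 and Olfr1279.

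**Figure D1:**
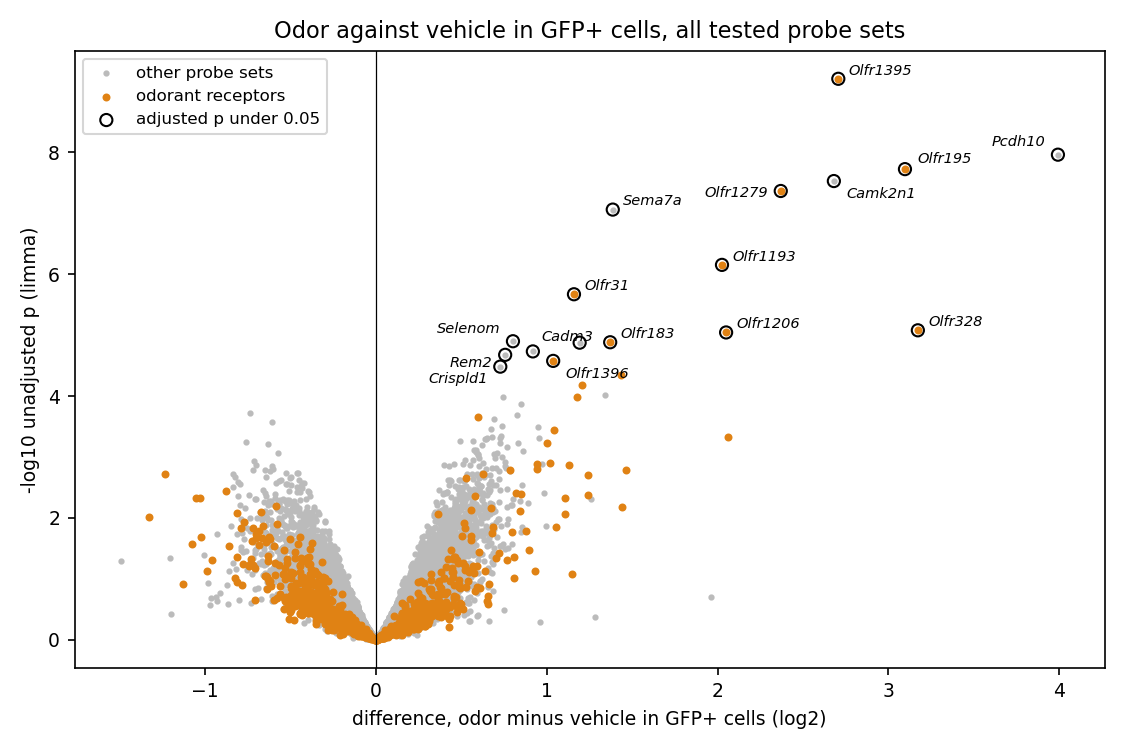
Difference between odor and vehicle GFP+ arrays (log2, horizontal) against -log10 of the unadjusted limma p (vertical) for the 22206 probe sets; odorant receptors are orange, other probe sets grey, and circles mark the 17 with an adjusted p under 0.05. All 17 circles lie to the right of 0, from Crispld1 at 0.73 to Pcdh10 at 3.99.

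Among the odorant receptors, 9 of 1080 rose (0.833%), against 8 of the 21126 other probe sets (0.0379%). A difference above 1 was found for 25 receptors (2.31%) and for 8 other probe sets (0.0379%), beside 33 of all probe sets (0.149%), and a difference below -1 for 7 receptors (0.648%) and 4 others (0.0189%), beside 11 of all (0.0495%). Receptors also spread more between arrays of a group, with a median within-group SD of 0.503 against 0.261 for the other probe sets. The median difference of the receptors was -0.05, and -0.16 without vehicle replicate 2. The 5th and 95th percentiles were -0.57 and 0.58, against -0.33 and 0.37 for the other probe sets. The number of receptors per array above the negative control level did not differ beyond the spread between arrays. That level is the median of the control entries and no detection limit, as control entries exceed it as often as not. At their 95th percentile, 360 to 406 receptors lay above on the odor arrays and 333 to 425 on the vehicle arrays. Above the median of the negative control entries lay 944, 938, 926 and 903 receptors on the odor arrays and 941, 916, 948 and 900 on the vehicle arrays. The means of 927.75 ± 18.1 and 926.25 ± 22.2 (SD) differed by 1.5 (exact permutation test, two-sided, p = 0.943, where 4 against 4 arrays can give no p below 0.0286), and the sign of so small a difference turned with other levels and without single arrays.

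Olfr328, a receptor of family MOR275 on chromosome 11, had the highest difference of the receptors. It read 14.17, 13.79, 13.26 and 13.49 on odor arrays 1 to 4 and 10.12, 10.66, 12.29 and 8.94 on vehicle arrays 1 to 4. The odor arrays lay within 1 unit of each other, whereas the vehicle arrays were spread widely with replicate 3 on top and replicate 4 at the bottom. The difference was 3.17 ± 0.50 (9.01-fold, adjusted p = 0.0201). It did not pass without vehicle replicate 2 (adjusted p = 0.072) or with the 8 GFP+ arrays fitted alone (adjusted p = 0.22).

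Olfr195, a receptor of family MOR184 on chromosome 16, read 13.13, 12.50, 13.42 and 12.84 with odor and 10.10, 10.61, 10.00 and 8.80 with vehicle. Every odor array was well above every vehicle array, and the difference of 3.10 ± 0.31 (8.55-fold, adjusted p = 0.00014) passed in all 17 alternatives.

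Olfr1395, a receptor of family MOR277 on chromosome 11, had the smallest adjusted p of all probe sets. Its signal was 14.14, 14.02, 13.89 and 14.72 with odor against 11.96, 11.01, 11.24 and 11.72 with vehicle, a tight cluster in each group. The difference was 2.71 ± 0.22 (6.53-fold, adjusted p = 1.38e-05) and passed in all 17 alternatives.

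Olfr1279, a receptor of family MOR245 on chromosome 2, read 7.51, 7.25, 7.88 and 7.17 with odor and 4.81, 4.87, 5.41 and 5.23 with vehicle, so that its vehicle values lay below the median of the negative control entries of these arrays (6.44) and its odor values above it. The groups were far apart relative to their spread, with a difference of 2.37 ± 0.25 (5.17-fold, adjusted p = 0.000192). The call held in the 16 alternatives that tested it, while the size of the change rests on vehicle values near nonspecific signal.

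The same chromosome holds Olfr1206 and Olfr1193. Olfr1206, of family MOR230, read 11.88, 11.91, 11.35 and 10.76 with odor and 9.30, 9.99, 8.97 and 9.44 with vehicle. The groups did not overlap, although odor replicate 4 came within 1 unit of vehicle replicate 2, and the difference was 2.05 ± 0.33 (4.14-fold, adjusted p = 0.0201). The call was lost in 8 of 17 alternatives, with an adjusted p of up to 0.1 without odor replicate 2. Olfr1193, of family MOR226 with a further synonym in MOR230, read 16.12, 16.06, 15.89 and 16.16 with odor and 14.89, 13.20, 14.03 and 14.00 with vehicle. Its odor arrays were nearly equal while vehicle replicate 1 stood high and replicate 2 low, and the difference was 2.03 ± 0.26 (4.07-fold, adjusted p = 0.00224). It missed the threshold in 1 of 17 alternatives, the fit of the 8 GFP+ arrays alone (adjusted p = 0.0581).

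The other 3 receptors differed less. Olfr183, of family MOR183 on chromosome 16, read 8.54, 8.28, 7.55 and 8.47 with odor and 7.30, 6.65, 6.51 and 6.89 with vehicle, with odor replicate 3 close to vehicle replicate 1. Its difference was 1.37 ± 0.23 (2.59-fold, adjusted p = 0.0228, and 0.101 without vehicle replicate 2). It passed in 10 of 17 alternatives, with an adjusted p of 0.246 in the fit of the 8 GFP+ arrays alone. Olfr31, of family MOR274 on chromosome 14, read 13.29, 13.47, 13.72 and 13.53 against 12.71, 12.34, 12.37 and 11.95. The 2 groups were separate and narrow, and the difference of 1.16 ± 0.16 (2.23-fold, adjusted p = 0.00594) passed in 15 of 17 alternatives. Olfr1396, of family MOR276 on chromosome 11, read 13.82, 13.53, 13.58 and 13.95 against 13.24, 12.37, 12.86 and 12.25. Vehicle replicate 1 came close to the odor arrays, and the difference of 1.04 ± 0.18 (2.05-fold, adjusted p = 0.0368) had an adjusted p of 0.139 without vehicle replicate 2 and of 0.539 in the fit of the 8 GFP+ arrays alone.

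Vehicle replicate 1 was the highest vehicle array for 5 of the 9 receptors and vehicle replicate 4 the lowest for 4. Among the odor arrays replicate 3 was the lowest for 4, and replicates 3 and 4 were each the highest for 3. Without vehicle replicate 2, 3 of the 9 missed the threshold (Olfr328, Olfr183 and Olfr1396), and over all 17 probe sets the differences were then 0.864 to 1.09 times their values with it. Odorant receptor genes form families of similar sequence, and cross-hybridization between such receptors was not tested.

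**Figure D2:**
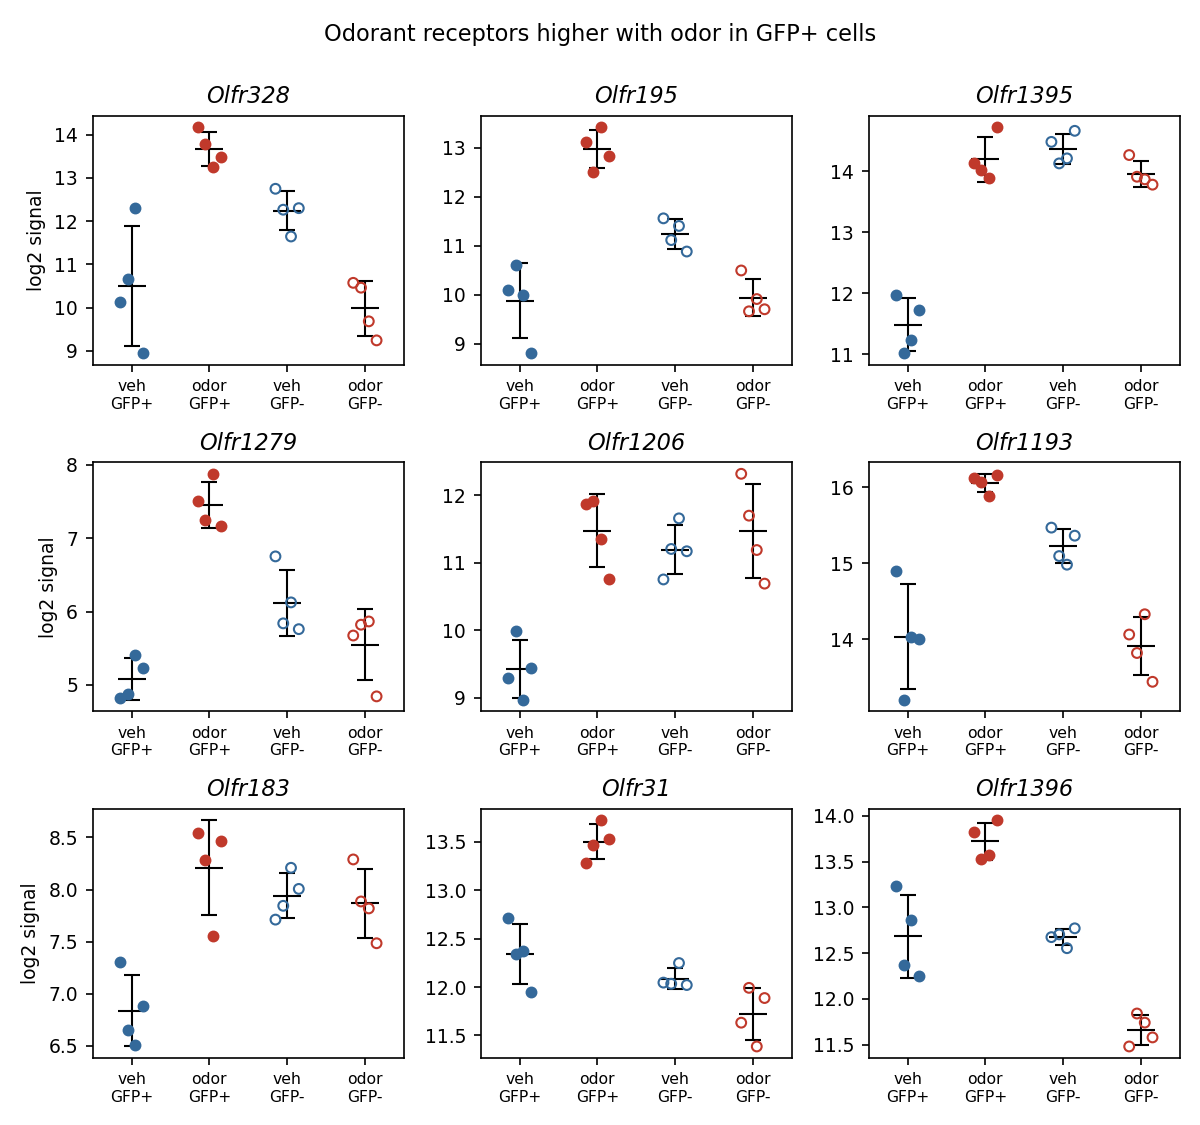
Log2 signal (vertical, each panel with its own axis that does not start at 0) of the 9 odorant receptors that rose with odor, in the 4 arrays of each group; filled points are GFP+ and open points GFP- arrays, blue is vehicle and red is odor, and bars are means ± SD. In GFP+ cells all red points lie above all blue points, while in GFP- cells 8 of the 9 receptors have a lower mean with odor.

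Relatives and neighbours of the 9 receptors were described next, with families taken from the MOR names in the annotation and order from the positions of receptor genes along each chromosome. In family MOR275 all 5 other measured members were above 0, from Olfr329 at 0.30 to Olfr224 at 2.06, with a median of 1.04. None of the 5 passed. Olfr224 read 11.93, 11.14, 11.56 and 10.43 with odor and 8.60, 9.69, 10.84 and 7.67 with vehicle, where vehicle replicate 3 exceeded odor replicate 4. Like Olfr328, it had its highest vehicle value in replicate 3 and its lowest in replicate 4. In family MOR184 the 7 others were all above 0, with a median of 0.38 and a highest value of 0.69, and in MOR183 4 of 5 were, with a median of 0.48. In family MOR230 5 of 7 others were above 0, with a median of 0.21, from -0.30 for Olfr1205 to 1.47 for Olfr1186. Family MOR245 went the other way, with 6 of 21 others above 0 a median of -0.34 and a highest value of 0.47. The 1 other measured member of MOR274, Olfr720, stood at 0.01, and at -0.16 without vehicle replicate 2. Families MOR226, MOR276 and MOR277 had no further measured member. Without vehicle replicate 2 these medians became 1.09 for MOR275, 0.15 for MOR184, 0.23 for MOR183, 0.07 for MOR230 and -0.29 for MOR245.

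Within 2 places of the 9 receptors in chromosome order, 24 neighbours were measured. Of these, 2 were themselves among the 9 (Olfr1395 and Olfr1396). Of the other 22, 18 were above 0 with a median of 0.29, beside -0.05 over all receptors. Without vehicle replicate 2, 14 of the 22 were, with a median of 0.15. On chromosome 11, the 6 measured receptors from Olfr331 to Olfr325 are the MOR275 family: all 6 were above 0 and 4 above 1, with a median of 1.11. On chromosome 2, of the 19 measured receptors from Olfr1186 to Olfr1212, 16 were above 0 and 8 above 1, with a median of 0.77, and 11 reached an unadjusted p under 0.05. Without vehicle replicate 2 the medians of the stretches on chromosomes 11 and 2 were 1.12 and 0.57. Over all receptors, 2.31% were above 1 and 5.37% were higher at an unadjusted p under 0.05. Both stretches were chosen after their values were seen and carry no test. The 9 receptors came from 4 chromosomes: 3 of the 282 receptors on chromosome 2, 3 of 78 on chromosome 11, 2 of 36 on chromosome 16 and 1 of 39 on chromosome 14. None of the 230 receptors on chromosome 7 or the 129 on chromosome 9 passed, and their medians were -0.08 and -0.07. None of the 120 class I receptors passed either, the group related to fish receptors, whose median was -0.12 and became -0.20 without vehicle replicate 2. Over all receptors 0.833% passed, so counts of 0 in groups of these sizes lie near that share. Trace amine-associated receptors, a separate receptor family of the main epithelium, had 0 of 15 passing and a median of 0.14, which became -0.03 without vehicle replicate 2.

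**Figure D3:**
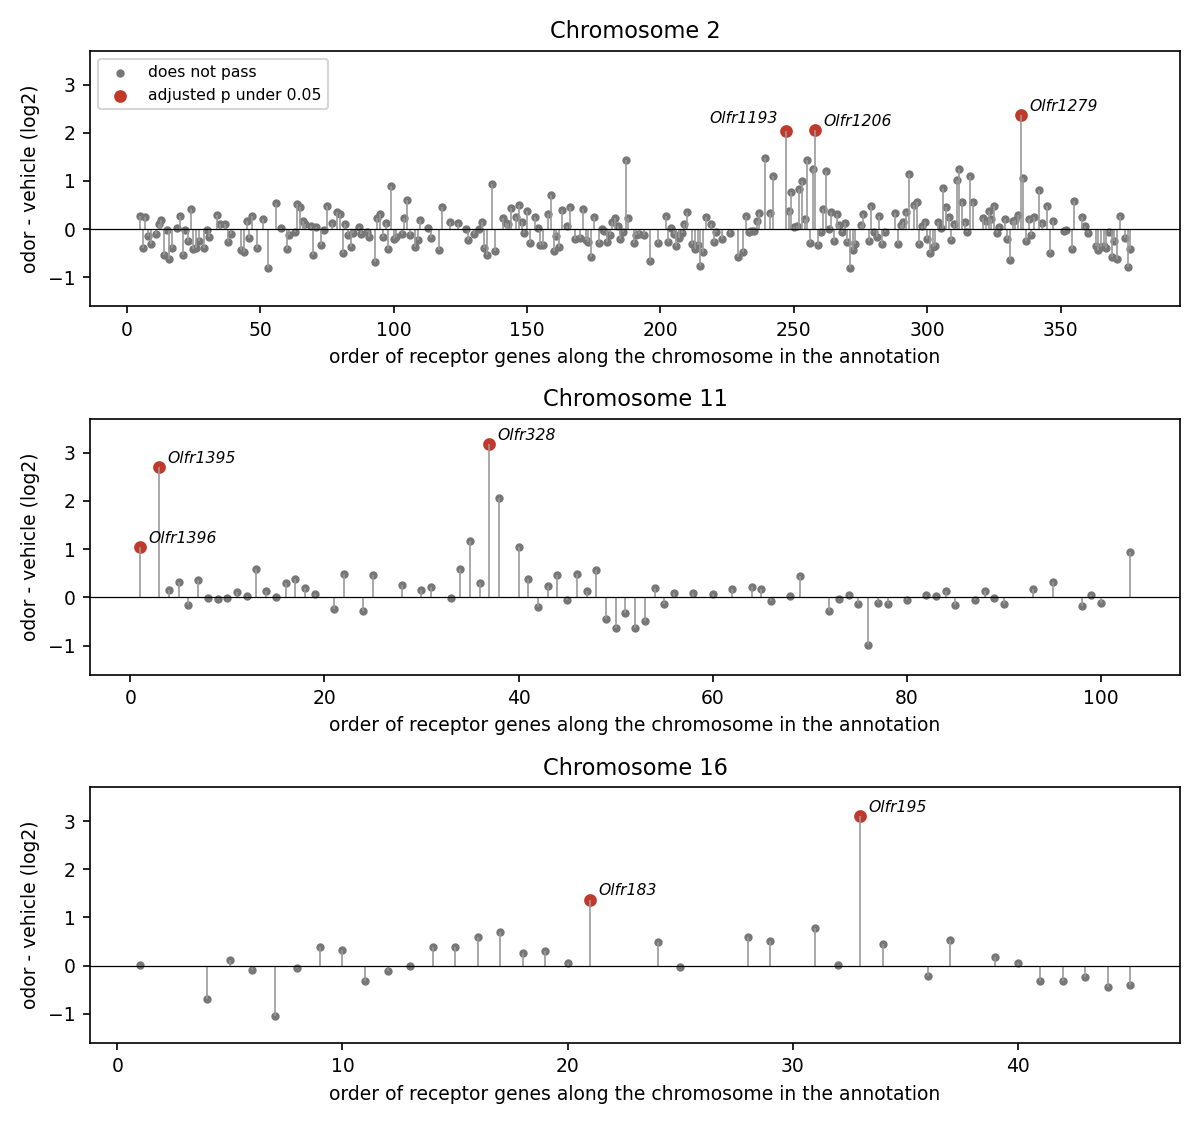
Difference between odor and vehicle GFP+ arrays (log2, vertical) for each measured odorant receptor in its order along chromosomes 2, 11 and 16 (horizontal, rank among receptor genes, not distance); red points have an adjusted p under 0.05. The red points on chromosome 11 are Olfr1396 and Olfr1395 at the start of the order and Olfr328 among the MOR275 receptors.

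Just beyond the threshold lay Olfr1137 (1.43, adjusted p = 0.0563), Olfr1212 (1.21, adjusted p = 0.0761), Tmem132a, which encodes a transmembrane protein (1.34, adjusted p = 0.105), a probe set without a symbol (0.74, adjusted p = 0.106) and Olfr330 (1.18, adjusted p = 0.106). Just inside it were the passing probe set without a symbol, Cadm3, Rem2, Olfr1396 and Crispld1. That unnamed probe set read 10.59, 10.87, 10.50 and 11.12 with odor and 9.55, 9.87, 9.49 and 9.40 with vehicle, a difference of 1.19 ± 0.20 (2.29-fold, adjusted p = 0.0228).

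No receptor fell past the threshold in the main limma fit, and 43 were lower at an unadjusted p under 0.05 (3.98%) beside 58 higher (5.37%). When single arrays were left out, Olfr791 passed as lower without odor replicate 3 and Olfr677 without vehicle replicate 4. With a replicate block Olfr231 passed as lower. The lowest differences were those of Olfr231 (-1.33 ± 0.46, adjusted p = 0.557) and Olfr986 (-1.23 ± 0.33, adjusted p = 0.415), and in both the groups overlapped. Olfr231 read 8.26, 6.26, 6.12 and 6.81 with odor and 9.48, 7.33, 7.46 and 8.50 with vehicle. Each of its odor arrays thus lay below the vehicle array of the same number. Olfr725 was the only one of the 6 lowest whose groups were separate, with 10.40, 10.34, 10.59 and 9.91 with odor against 10.99, 11.31, 12.13 and 10.92 with vehicle (-1.03 ± 0.32, adjusted p = 0.496). All 4 odor arrays lay below all 4 vehicle arrays for 4 receptors (0.37%), and above them for 32 (2.96%).

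Outside the receptors, 7 named genes rose, and 3 of them passed in all 17 alternatives. Pcdh10 encodes a protocadherin, an adhesion molecule of axons, and had the highest difference of all probe sets. It read 14.07, 13.96, 13.29 and 13.52 with odor and 9.36, 8.41, 10.81 and 10.29 with vehicle. The odor arrays were close together and more than 2 units above the highest vehicle array, and the difference was 3.99 ± 0.38 (15.9-fold, adjusted p = 0.000122). Camk2n1, an inhibitor of the calcium/calmodulin-dependent kinase CaMKII, read 10.49, 11.21, 10.46 and 11.16 with odor and 7.89, 8.01, 8.68 and 8.02 with vehicle. Its vehicle arrays were nearly equal apart from replicate 3, and the difference was 2.68 ± 0.28 (6.41-fold, adjusted p = 0.000165). Sema7a, a membrane-anchored semaphorin, read 15.46, 15.31, 14.81 and 15.35 with odor and 13.77, 13.70, 13.93 and 13.98 with vehicle. The groups were clearly apart, with a difference of 1.39 ± 0.15 (2.62-fold, adjusted p = 0.000323).

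The other 4 genes differed by less than 1 unit, and each missed the threshold without vehicle replicate 2. Cadm3, an adhesion molecule of the immunoglobulin superfamily, read 11.85, 11.75, 11.47 and 11.12 with odor and 10.51, 10.45, 10.77 and 10.77 with vehicle, a difference of 0.92 ± 0.16 (1.89-fold, adjusted p = 0.0294, and 0.104 without that array). Selenom, a selenoprotein of the endoplasmic reticulum, read 13.55, 13.60, 13.87 and 13.46 against 12.92, 12.65, 13.02 and 12.68, a difference of 0.80 ± 0.13 (1.74-fold, adjusted p = 0.0228, and 0.0848 without that array). In both genes the gap between the groups was narrow but present. Rem2, a small GTPase that restrains voltage-gated calcium channels, read 7.85, 7.80, 8.17 and 8.05 against 7.48, 7.01, 7.09 and 7.25, a difference of 0.76 ± 0.13 (1.69-fold, adjusted p = 0.0312, and 0.101 without that array). Crispld1, which encodes a secreted cysteine-rich protein, read 4.44, 4.74, 4.70 and 4.24 against 3.58, 3.81, 3.99 and 3.84. All 8 of its values lay below the negative control median of 6.44, and the difference of 0.73 ± 0.13 (1.66-fold, adjusted p = 0.0431) passed in 3 of 16 alternatives. Cadm3, Selenom and Rem2 passed in 8, 9 and 5 of 17 alternatives. In the fit of the 8 GFP+ arrays alone the adjusted p was 0.440 for Cadm3, 0.377 for Selenom, 0.488 for Rem2 and 0.675 for Crispld1. Vehicle replicate 2 was the lowest vehicle array for 5 of the 7 genes and vehicle replicate 3 the highest for 5.

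**Figure D4:**
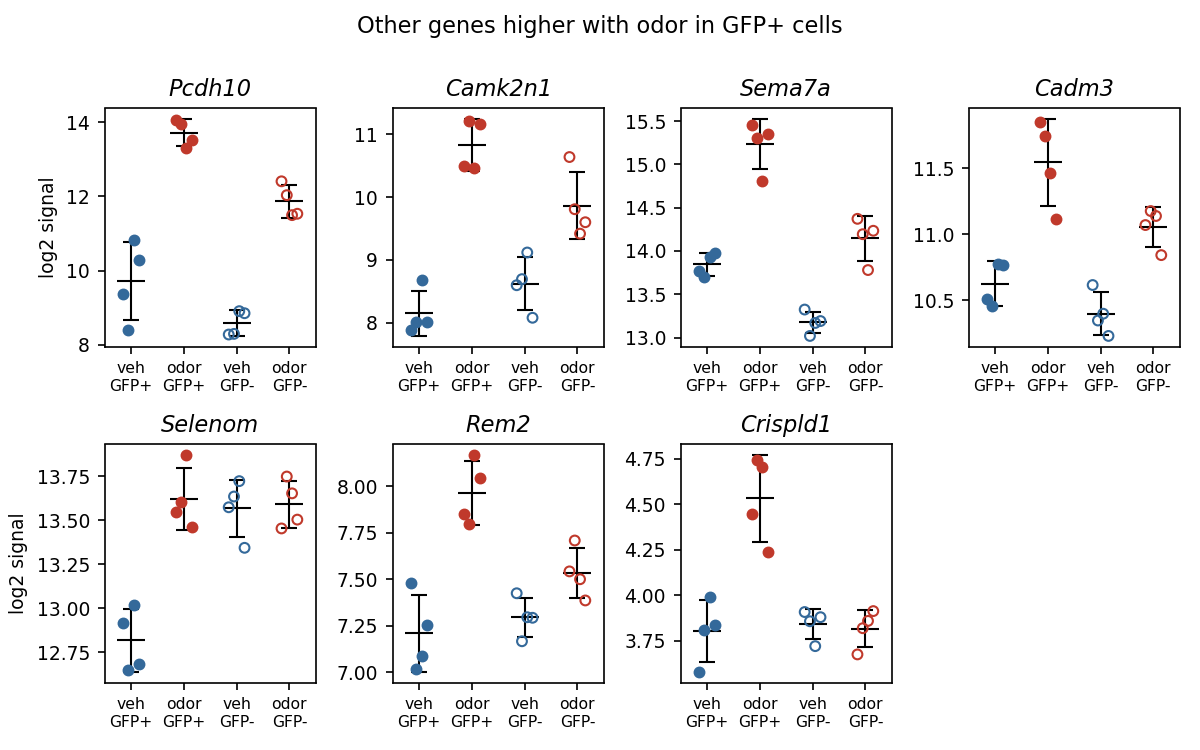
Log2 signal (vertical, each panel with its own axis that does not start at 0) of the 7 genes other than receptors that rose with odor in GFP+ cells, in the 4 arrays of each group; filled points are GFP+ and open points GFP- arrays, blue is vehicle and red is odor, and bars are means ± SD. Pcdh10, Camk2n1, Sema7a and Cadm3 also have all red open points above all blue open points, and Selenom, Rem2 and Crispld1 do not.

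Of the 7 genes, 5 belong to the list of slow activity-dependent genes used below, which was drawn up with results of these data known. CREB, a transcription factor of many activity-dependent genes, binds the cAMP response element, and the stretches upstream of the genes are shown for that reason. For 5 of the 7 genes RefSeq gives a window of 250 bases before the annotated start (GRCm38.p6), and Camk2n1 and Crispld1 are named only. The half-site of the element, TGACG or its reverse complement CGTCA, was searched on both strands and is set in capitals. The sequences run 5' to 3' on the strand of the gene and end at the base before the start. Pcdh10 (chr3:45378148-45378397, plus strand) holds 2 half-sites, 116 and 103 bases before the start, Cadm3 (chr1:173367696-173367945, minus strand) 1 at 29 bases, and Selenom (chr11:3514434-3514683, plus strand) 1 at 51 bases. Sema7a (chr9:57939862-57940111, plus strand) holds none.
Pcdh10: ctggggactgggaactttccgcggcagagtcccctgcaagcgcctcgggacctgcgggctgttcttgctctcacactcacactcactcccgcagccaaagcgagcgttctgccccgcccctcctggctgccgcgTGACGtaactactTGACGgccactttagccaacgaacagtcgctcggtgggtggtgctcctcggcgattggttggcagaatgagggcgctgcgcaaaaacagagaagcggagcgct
Cadm3: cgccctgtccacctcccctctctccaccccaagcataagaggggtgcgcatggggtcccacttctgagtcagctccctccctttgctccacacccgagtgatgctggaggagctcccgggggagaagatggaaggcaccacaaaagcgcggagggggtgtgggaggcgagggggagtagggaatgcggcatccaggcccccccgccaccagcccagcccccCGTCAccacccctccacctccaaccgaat
Selenom: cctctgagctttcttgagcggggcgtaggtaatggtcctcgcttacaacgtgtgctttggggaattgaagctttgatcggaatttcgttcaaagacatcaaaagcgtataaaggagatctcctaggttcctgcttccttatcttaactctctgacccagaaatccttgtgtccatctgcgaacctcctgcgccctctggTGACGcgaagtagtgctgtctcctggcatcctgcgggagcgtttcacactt
Sema7a: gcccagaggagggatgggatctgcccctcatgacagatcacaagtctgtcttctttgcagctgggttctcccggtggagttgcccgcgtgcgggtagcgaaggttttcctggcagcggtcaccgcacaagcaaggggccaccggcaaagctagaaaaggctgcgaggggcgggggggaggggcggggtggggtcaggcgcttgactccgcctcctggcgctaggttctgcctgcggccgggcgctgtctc
The window of Rem2 holds none either, so 3 of 5 windows hold a half-site. Selenom is not on that list, and of the list members with a window Pcdh10 and Cadm3 hold a half-site while Sema7a and Rem2 do not. Of all 32851 RefSeq windows of that length, 5836 hold one (17.8%), and the whole palindrome TGACGTCA, which contains both half-sites, is in 508 (1.55%) and in none of the 5. A match describes the letters and is not evidence of binding.

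S100a5, on which the sort depends, was itself higher with odor on every array, at 17.11, 17.11, 17.07 and 17.11 against 16.55, 16.62, 16.67 and 16.82. The odor values were almost equal, and the difference of 0.44 ± 0.12 did not pass over all probe sets (adjusted p = 0.432, and 0.173 to 0.95 over the alternatives). In GFP- cells S100a5 was high as well, with means of 16.11 with odor and 15.80 with vehicle. That difference of 0.31 did not pass. The GFP+ level exceeded the GFP- level by 0.99 with odor and 0.87 with vehicle. The list of slow activity-dependent genes, which was drawn up with results of these data known and is therefore no independent evidence, held 19 probe sets, of which 5 rose (Pcdh10, Camk2n1, Sema7a, Cadm3 and Rem2) and 0 fell. Its median was 0.24, against 0.01 for all probe sets, and without vehicle replicate 2 the count was 3 and the median 0.16. Further members gave Lrrc3b 0.59, Kirrel2, an adhesion gene of olfactory axons, 0.55 ± 0.42 (adjusted p = 0.817), Rgs4, a regulator of G protein signalling, 0.44, and Pcp4l1 0.24, none of which passed. The growth factor gene Bdnf stood at -0.14 and the axon guidance receptor gene Nrp2 at -0.20.

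Fast activity-dependent genes did not pass. Of 36 probe sets of immediate-early genes, whose transcripts appear within minutes of stimulation, 0 rose and 0 fell, and the median was 0.07. Fos differed by -0.30 ± 0.70 (adjusted p = 0.959), and Egr1, Nr4a1 and Fosb by 0.59, 0.55 and 0.75 with wide spreads. Fos read 8.83, 9.34, 8.53 and 10.55 with odor and 9.34, 9.43, 8.45 and 11.21 with vehicle. Its order by replicate number was the same in both groups, so its error holds spread that same-numbered arrays share. With a replicate block Fos did not pass either (limma, adjusted p = 0.667). In the main fit Dusp4, a phosphatase of MAP kinases, was at 0.51 and the synaptic gene Arc at -0.35, each at an unadjusted p under 0.05. That was 1 of 36 in each direction, beside 4.28% higher and 2.87% lower over all probe sets.

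The genes that carry the odor signal in cilia did not pass either. None of the 25 transduction genes reached an unadjusted p under 0.05, and their median was 0.03 (-0.02 without vehicle replicate 2). Over all probe sets 4.28% were higher and 2.87% lower at that level, so 0 of 25 lies near the share over all. The channel subunit genes Cnga2, Cnga4 and Cngb1 stood at 0.06, -0.08 and 0.31, adenylyl cyclase Adcy3 at 0.07, the G protein gene Gnal at 0.09 and the chloride channel gene Ano2 at 0.08. Omp, which marks mature olfactory neurons, differed by 0.03 ± 0.10 (adjusted p = 0.981). Among 28 probe sets for receptor choice and trafficking 0 passed, with a median of -0.02. The receptor transport genes Rtp1 and Rtp2 stood at -0.12 and 0.12, and the chromatin genes Ehmt1 and Bptf at -0.43 and -0.41, with an unadjusted p under 0.05.

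Of 30 axon guidance and glomerular sorting genes, 2 rose, Pcdh10 and Sema7a, and the median was -0.05. Cntn3, a contactin, stood at 0.57 and the semaphorin receptor gene Plxnc1 at 0.27, neither passing, and the homophilic adhesion gene Kirrel3 at -0.06. Pcdh10 was the only one of 10 delta-protocadherins to pass, and the other 9 lay between -0.21 (Pcdh9 and Pcdh17) and 0.12 (Pcdh1).

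Markers of other cells of the mucosa were set beside these results. None of 18 markers of immature neurons passed (median -0.05, Gap43 -0.10 ± 0.36, adjusted p = 0.98), and none of 17 for globose basal and cycling cells (-0.04), 10 for horizontal basal cells (0.02), 16 for sustentacular cells (-0.04, Cyp2g1 -0.06 ± 0.30, adjusted p = 0.988), 14 for Bowman's gland and respiratory epithelium (-0.04), 13 for microvillar and solitary chemosensory cells (-0.09) or 8 for guanylate cyclase D neurons (0.03). Outside the epithelial lineage, none of 12 neutrophil markers (0.04, S100a8 -0.07 ± 0.36, adjusted p = 0.988), 8 lymphocyte (0.04), 1 erythroid (-0.07), 9 endothelial (0.03), 8 ensheathing glia (0.06) or 10 fibroblast markers (-0.07) passed. Markers of macrophages and other leukocytes had the lowest median of these lists, -0.31. Of the 15, 0 passed, and C1qa, C1qb, Fcer1g and Csf1r reached an unadjusted p under 0.05 at -0.55, -0.57, -0.79 and -0.56. Over all probe sets 2.87% were lower at that level. The array medians of these 15 markers ran from 7.36 to 7.86 with odor and from 7.65 to 8.16 with vehicle, and their part in the results above was not tested. Without vehicle replicate 2 the medians became 0.23 for sustentacular cells, 0.16 for Bowman's gland and respiratory epithelium, 0.20 for ensheathing glia, 0.12 for fibroblasts, 0.14 for neutrophils, 0.03 for globose basal and cycling cells, -0.09 for guanylate cyclase D neurons, 0.01 for erythroid cells and -0.26 for macrophages and other leukocytes. Setting receptor medians equal on all arrays shifted the median of all probe sets by 0.0971, so small medians have no settled sign in either respect.

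As 1-pentanethiol is a thiol, genes of sulfur and thiol metabolism and of chemical defence were examined. None of the 20 thiol and sulfur genes passed or reached an unadjusted p under 0.05, and they lay between -0.22 (Fmo5, a flavin monooxygenase) and 0.28 (Selenbp1, a methanethiol oxidase), with a median of 0.06. At that unadjusted level 4.28% of all probe sets were higher and 2.87% lower, so 0 of 20 lies near the share over all. Of 23 genes of xenobiotic and oxidative defence 0 passed, with Gpx2, a glutathione peroxidase, at 0.46 and the glutathione transferase gene Gstm1 at 0.52 at an unadjusted p under 0.05. The unfolded protein response (17 probe sets, median 0.01) and heat shock genes (9, median 0.16, and 0.015 without vehicle replicate 2) had 0 passing.

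The GFP- cells of the same pools gave the nearest comparison. There 11 probe sets passed (0.0495%), 2 of them higher (0.00901%) and 9 lower (0.0405%). Of the 9 receptors that rose in GFP+ cells, 0 passed in GFP- cells, 8 had a difference below 0 and 1, Olfr1206, above it (0.28). Olfr328 went from 12.75, 12.26, 11.64 and 12.30 in GFP- cells with vehicle to 10.57, 10.46, 9.68 and 9.24 with odor, a difference of -2.25 (adjusted p = 0.301). Olfr1193 and Olfr195 differed by -1.31 and -1.30 and Olfr1396 by -1.02 (adjusted p = 0.147, 0.504 and 0.0625). Of the 7 other genes, 6 were above 0 in GFP- cells and 2 passed. Pcdh10 read 12.40, 12.03, 11.49 and 11.53 with odor and 8.28, 8.29, 8.91 and 8.85 with vehicle, a difference of 3.28 (adjusted p = 0.000776), and Sema7a differed by 0.97 (adjusted p = 0.0225). These are the 2 probe sets that were higher in GFP- cells. Camk2n1 was at 1.24 there (adjusted p = 0.301), Cadm3 at 0.66, Rem2 at 0.24, Selenom at 0.02 and Crispld1 at -0.02.

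Whether the change with odor differed between the fractions was tested as the GFP+ difference less the GFP- difference. In all, 14 probe sets passed (0.063%), all higher and all receptors, and the same 14 passed without vehicle replicate 2. The 9 receptors accounted for 7 of them, with values of 5.42 for Olfr328, 4.40 for Olfr195, 3.34 for Olfr1193, 3.12 for Olfr1395, 2.94 for Olfr1279, 2.05 for Olfr1396 and 1.52 for Olfr31. The 9 were picked by their GFP+ differences, which enter this test, so their passing is not independent of that choice. Olfr1206 (1.77, adjusted p = 0.527) and Olfr183 (1.44, adjusted p = 0.241) did not pass. None of the 7 other genes passed, with 0.71 for Pcdh10 (adjusted p = 0.999), 0.42 for Sema7a (adjusted p = 0.999) and 1.44 for Camk2n1 (adjusted p = 0.64). The remaining 7 of the 14 did not pass in GFP+ cells, where their differences ran from 0.16 to 2.06, while in GFP- cells they ran from -4.16 to -1.62. Olfr1183, for instance, differed by 0.16 in GFP+ and by -4.16 in GFP- cells, and Olfr224 by 2.06 and -2.27.

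The fractions also differed in where these receptors started. The GFP+ level of Olfr1395 less its GFP- level was -2.88 with vehicle and 0.24 with odor. Olfr328 went from -1.73 to 3.69, Olfr195 from -1.36 to 3.03 and Olfr1193 from -1.20 to 2.14, so that for these the odor arrays had more signal in GFP+ than in GFP- cells and the vehicle arrays less. Olfr31 was already on the higher side, at 0.26 with vehicle and 1.78 with odor, and Olfr1206 went from -1.77 to about equal levels. Of the 9 receptors, 7 had less signal in GFP+ than in GFP- cells of the vehicle pools.

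**Figure D5:**
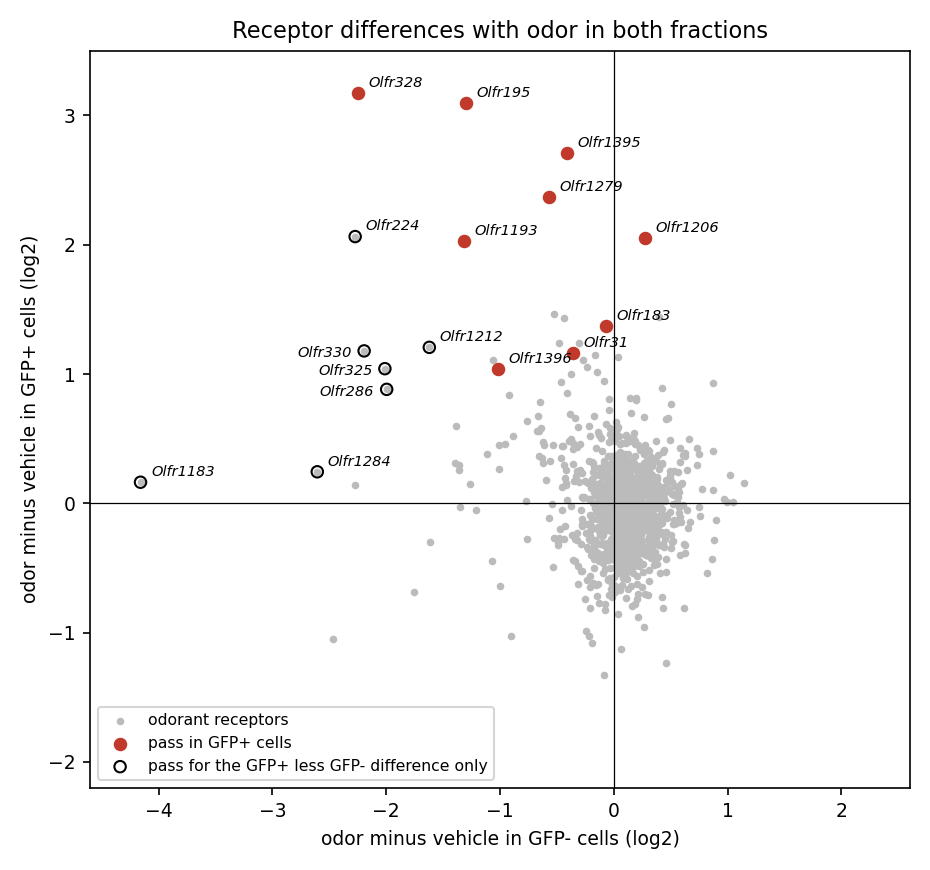
Difference between odor and vehicle (log2) in GFP+ cells (vertical) against that in GFP- cells (horizontal) for the 1080 odorant receptors; red points passed in GFP+ cells, and circles mark the 7 that passed for the GFP+ less GFP- difference alone. The red points lie high, 8 of 9 of them left of 0, and the circles reach from -4.16 to -1.62 on the horizontal axis.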

How the data were processed

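Clariom S mouse array values of the 16 samples were used. The authors deposited log2 signals of probe sets, made with Affymetrix Expression Console per the submitters' processing notes. For its version, summarization and normalization nothing is given in the sources used here. Values of the tested probe sets ran from 2.51 to 18.85, 19572 had 1 gene symbol and 2634 none, and 5222 negative control entries gave the level of nonspecific signal. No filter or further scaling was applied.

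Groups came from the sample titles. Means of the 4 groups by stimulus and fraction were estimated over the 16 arrays in limma 3.58.1 (R 4.3.3, empirical Bayes, 16.66 total degrees of freedom), so the GFP- arrays entered the estimate of spread. Tests were two-sided with Benjamini-Hochberg adjustment over 22206 probe sets. The code was tested on simulated data. Named genes were the passing ones with 1 symbol and separate groups (up to 20 higher and 12 lower receptors, and up to 12 other genes in each direction), passing list members, and S100a5, Omp, Kirrel2, Pcdh10, Fos, Gap43, Cyp2g1 and S100a8. List members that did not pass, and the 6 lowest receptors, were chosen as examples after their values were seen. The comparison and the lists were chosen with earlier results of these data known. Remaining lists were 321 vomeronasal receptor probe sets (median 0.06), 60 ribosomal protein genes (0.01), 93 respiratory chain genes (0.00) and 3 sex-linked genes (-0.06, and 1.03 without vehicle replicate 2), with 0 passing. The alternatives were 3 scalings, a filter on dim probe sets, the 8 GFP+ arrays alone, a replicate block, the pool as a random block, a trended and robust prior, array weights, and each GFP+ array left out. Values of receptor relatives and neighbours without vehicle replicate 2 were added after the data were seen.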

Additional observations from a re-analysis of the deposited data

Results flagged for a closer look

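For 7 receptors the change with odor differed between the fractions by the test of the difference itself (limma, log2 scale, each past an adjusted p of 0.05): Olfr328 (5.42), Olfr195 (4.40), Olfr1193 (3.34), Olfr1395 (3.12), Olfr1279 (2.94), Olfr1396 (2.05) and Olfr31 (1.52). These receptors had been picked by the GFP+ difference, which enters that test. Of 54 groups of 4 arrays examined for a value far from the others, 2 had one, where chance gives about 1 in 20. The vehicle GFP+ array of replicate 3 was high for Camk2n1, its gap to the next array being 0.836 of the range of the group. The negative control median of vehicle replicate 2 was high in the same way, with a gap of 0.844 of the range.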

How the results depend on the processing

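Of 287 values of the 17 probe sets under the 17 alternatives, 202 kept their call, 85 lost it and 0 changed sign. The count of 17 in GFP+ cells became 6 with the 8 GFP+ arrays fitted alone (Olfr195, Olfr1395, Olfr1279, Pcdh10, Camk2n1 and Sema7a), and 8 to 15 when single arrays were left out, 8 without odor replicate 1 or 2 and 10 without vehicle replicate 2 or 4. Scaling, the filter, the random block, the prior and array weights gave 12 to 18. The cause was not tested. The count of 14 for the GFP+ less GFP- difference became 22 with receptor medians set equal. It was 14 to 16 in the other 4 alternatives listed for it, and in alternatives added after the data were seen it was 14 or 15 with the filter, the prior or array weights and 13 to 18 when single GFP+ arrays were left out. The difference in receptors above the negative control level, 1.5, became -11 at the 95th percentile (p = 0.686), -2.75 at 1 unit above the median (p = 0.886, exact permutation tests) and -7.25 to 9.75 when single arrays were left out. Same-numbered odor and vehicle GFP+ arrays had correlated deviations of r = 0.173, 0.031, 0.058 and 0.256. Odor replicates 1, 2 and 4 correlated best with the vehicle array of the same number, and odor replicate 3 with vehicle replicate 2 (r = 0.198). As not all same-numbered values were over 0.1, the number was not taken to pair the arrays. Any effect shared by arrays of 1 number therefore stays in the spread of the main fit. With a replicate block 14 probe sets passed in GFP+ cells, 11 of them among the 17, with 1 lower, Olfr231, and Olfr1212 and Olfr330 among those gained, and 15 for the GFP+ less GFP- difference. The sign turned for 5 genes that did not pass: Omp ran from -0.0117 to 0.0553 and was -0.00076 with array weights, Fos from -0.71 to 0.24, Gap43 from -0.35 to 0.13, Cyp2g1 from -0.27 to 0.28 (0.0387 with receptor medians set equal, 0.12 with array weights) and S100a8 from -0.38 to 0.26 (0.0286 with receptor medians set equal), each range over arrays left out. The number of arrays limits the precision, and probe sets near the negative control level, Olfr1279 and Crispld1 among them, have uncertain sizes.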
